A study of Homo sapiens with 2 samples.

Results

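The genes described here encode the proteins of the cytosolic ribosome, measured in QGP1 cells with high aldehyde dehydrogenase (ALDH) activity and in control QGP1 cells. They were taken by gene symbol alone: a probe set belonged when the platform annotation gave it a single symbol of a set form, or the symbol RPSA. The form was RPL, RPS or RPLP followed by a number, then an optional A, X or L and optional further digits. This rule found 59 genes on 120 probe sets, out of 19775 genes with a single-symbol probe set and 54675 probe sets in all. Of the 59, 52 are core ribosomal protein genes, 32 of the large and 20 of the small subunit, and 7 are minor paralogues (RPL3L, RPL7L1, RPL10L, RPL22L1, RPL26L1, RPL39L and RPS27L). For each gene the main probe set was the one with the highest mean over both arrays. A further 65 probe sets listed a member symbol together with others, mostly those of small nucleolar RNAs hosted in the introns, and no gene was named from them. Of the symbols on them, 15 had no single-symbol probe set, so genes such as RPL4, RPL5 and RPS2 were not analysed here by name, nor were RPLP0 and RPSA.

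QGP1 is an established human cell line from a pancreatic neuroendocrine tumour. One group was QGP1 cells sorted by flow cytometry for high ALDH activity, and the other was control QGP1 cells, with 1 array each. Both are the same line with no further treatment named, and the labels do not state if the controls were sorted too. The values are log2 levels from RMA, which corrects background, gives all arrays the same distribution and combines a probe set's probes into 1 value. With 1 array per group no difference has a replicate check, no test was made, and each difference compares these 2 arrays.

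Each ribosome has a small subunit, which reads the messenger RNA, and a large subunit, which joins amino acids. Most of their proteins are needed in equal numbers, and their messenger RNAs are among the most abundant of a growing cell. Most of these messenger RNAs begin with a C followed by a run of pyrimidines, the terminal oligopyrimidine (TOP) tract, through which mTORC1 and the RNA-binding protein LARP1 control their translation. In bulk RNA, fewer cells of one kind and less RNA per cell cannot be told apart, and a level on a normalised array is relative to the other messenger RNAs of that sample.

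The TOP tract is the sequence feature the members share beyond their names, so the start sites of a few are shown first. Sequences came from RefSeq on build GRCh38.p14, matched by Entrez ID, and covered 51 of the 59 genes. The start sequences used held none for RPL23A, RPL30, RPL37, RPL39L, RPL3L, RPL7, RPL8 and RPS15A. Each window holds 15 bases before and 15 from the annotated start, in the sense of the gene, and capitals mark a C with the unbroken run of C and T after it, where it begins within 10 bases of the start and is at least 5 bases long. The first pair are the core genes that stood lowest in the ALDH-high cells in their subunit, and the second pair are core genes that were nearly level. RPS4X is a core gene without a tract at this start. RPL22 and RPS27 are shown with their paralogues RPL22L1 and RPS27L, and RPL10L and RPL7L1 are shown as paralogues without a tract.
RPL34, chr4:108620561-108620590, plus strand: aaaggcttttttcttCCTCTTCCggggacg
RPS6, chr9:19380222-19380251, minus strand: aagcggaagttggccCTCTTTTCCgtggcg
RPL41, chr12:56116618-56116647, plus strand: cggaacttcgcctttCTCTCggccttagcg
RPL14, chr3:40457324-40457353, plus strand: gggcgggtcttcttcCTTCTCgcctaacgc
RPS4X, chrX:72277234-72277263, minus strand: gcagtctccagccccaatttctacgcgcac
RPL22, chr1:6199581-6199610, minus strand: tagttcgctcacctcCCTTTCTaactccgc
RPL22L1, chr3:170870181-170870210, minus strand: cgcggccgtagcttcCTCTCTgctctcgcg
RPS27, chr1:153990747-153990776, plus strand: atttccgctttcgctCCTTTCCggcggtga
RPS27L, chr15:63157463-63157492, minus strand: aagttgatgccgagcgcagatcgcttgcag
RPL10L, chr14:46651767-46651796, minus strand: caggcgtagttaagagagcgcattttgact
RPL7L1, chr6:42879601-42879630, plus strand: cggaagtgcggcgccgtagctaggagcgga

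A tract beginning exactly at an annotated start was found in 34 of 46 core genes (73.9%) and in 5.14% of all 27305 genes with a start sequence. Allowing it to begin within 10 bases gave 42 of 46 core genes (91.3%) and 38.4% of all genes. RPL27, RPL6, RPS29 and RPS4X had no such tract at any listed start. Of the 5 paralogues with a sequence, RPL22L1 had one and RPL7L1, RPL10L, RPL26L1 and RPS27L had none. In the window of 250 bases before to 50 after the start, the GABPA ETS motif CCGGAAG, on either strand, was present in 17 of 46 core genes (37.0%) and in 12.2% of all genes. The YY1 motif AAGATGGC was present in 4 of the 46 (8.70%) and in 3.52% of all genes, and the SP1 box GGGCGG in 26 (56.5%) and 48.3% of all genes, each on either strand. The reverse complement of the ETS motif, CTTCCGG, can overlap the end of a tract, as it does in RPL34. A match is a description of the sequence alone. Core genes with a tract exactly at the start had a median difference of -0.08 (34 genes) and those without had -0.11 (12 genes).

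The core ribosomal protein genes were slightly lower in the ALDH-high cells, most of them by a small and similar amount. Of 52 core genes, 44 lay below 0 and 8 above, against 50.3% of all genes below 0 and 45.6% above. Their median difference, ALDH high minus control, was -0.08 on the log2 scale, which is 1.06-fold lower, while the median of all 19775 genes was -0.0050. No member, paralogues included, was over 2-fold different, where 1.23% of all genes were over 2-fold lower and 0.465% over 2-fold higher. A lower threshold of 1.2-fold, used because the differences were small, was passed downwards by 3 of the 59 members (16.2% of all genes), namely RPL34, RPL22L1 and RPL10L, and upwards by 1 (13.8% of all genes), RPS27L.

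**Figure D1:**
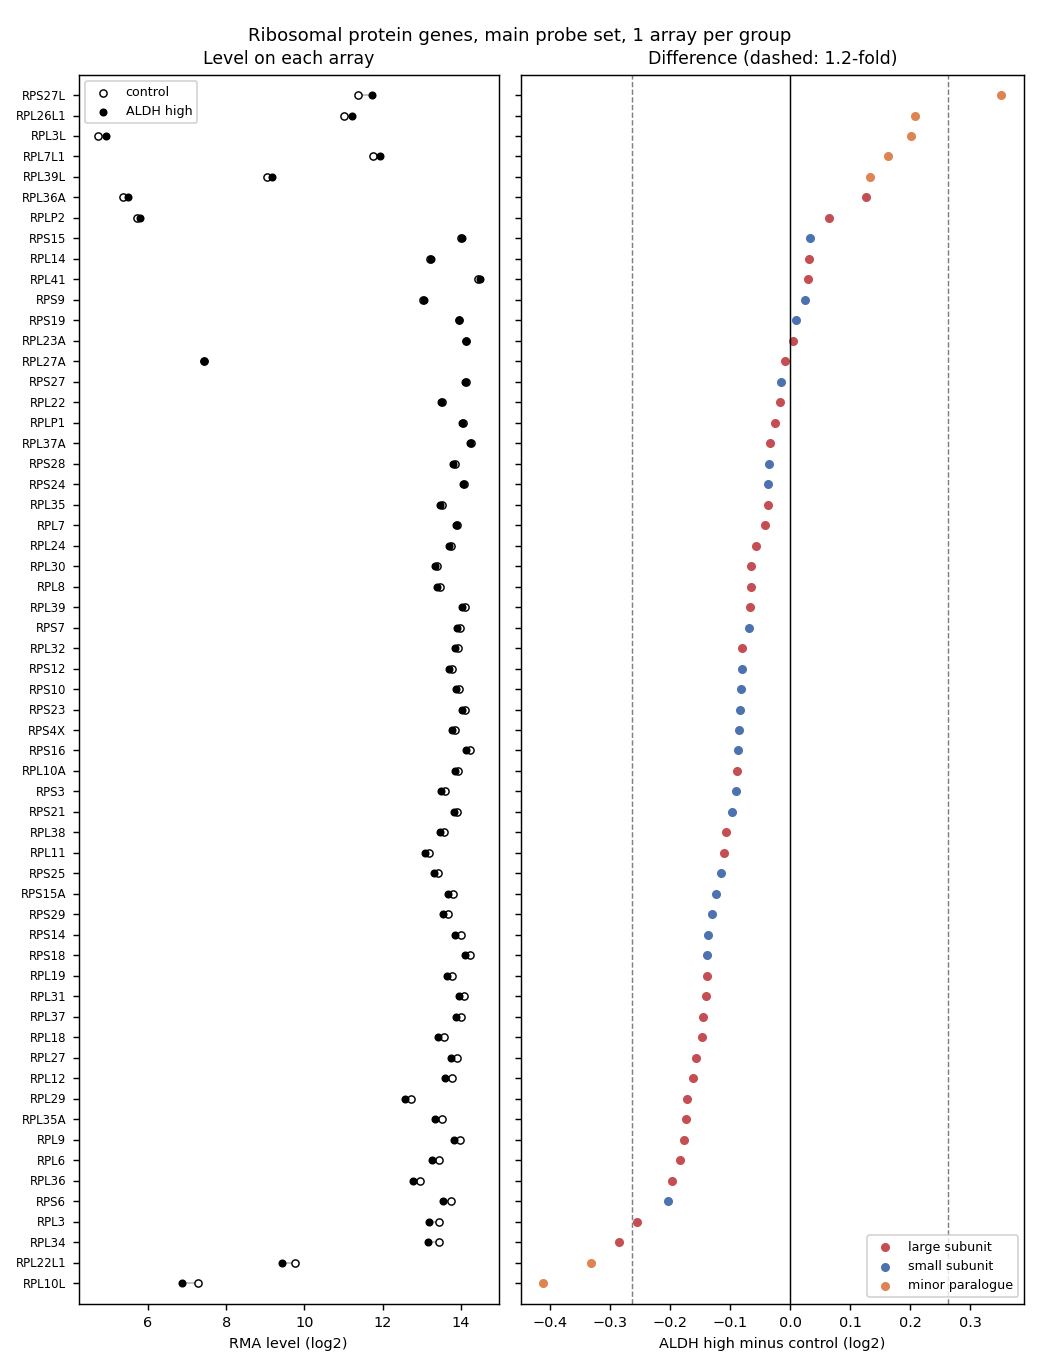
Every ribosomal protein gene by its main probe set: on the left the RMA level (log2) on the control array (open) and the ALDH-high array (filled), on the right the difference, coloured by subunit or paralogue, with dashed lines at 1.2-fold. The 7 paralogues take both ends of the order, and of the core genes RPL34 alone lies past 1.2-fold.

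Ribosomal protein probe sets are bright, so the core genes were also read against other bright genes. The main probe set of 49 core genes had a mean level of 12 or more, as had 471 genes in all. Of these 49, 43 lay below 0 and 6 above, against 52.7% and 47.1% of the 471. Their median was -0.09, and that of the 422 other bright genes was 0.01. The core genes were also close together, with an SD across genes of 0.073 against 0.272 for the others. At this brightness 1 core gene was over 1.2-fold lower and none higher, whereas 10.2% of the bright genes were over 1.2-fold lower and 11.3% higher, and 0.212% were over 2-fold in each direction.

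The lower values were smaller among the brightest probe sets. The 35 core genes with a mean level from 13 to 14 had a median of -0.10 (32 below 0), and the 12 at 14 or more had -0.034 (9 below 0). The 2 from 12 to 13, RPL36 and RPL29, stood at -0.20 and -0.17. Other genes in the bins from 13 to 14 and at 14 or more had medians of -0.020 (99 genes) and 0.07 (9 genes). The SD across genes from 13 to 14 was 0.071 for core and 0.239 for other genes. At 14 or more it was 0.058 for core and 0.088 for other genes. Across the 49 bright core genes, difference and mean level correlated at Pearson's r = 0.37 and Spearman's rho = 0.38, and across the 422 other bright genes at r = -0.019 and rho = -0.045. These are correlations across genes of the same 2 arrays, not across independent replicates. Whether bright probes approach saturation was not tested.

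**Figure D2:**
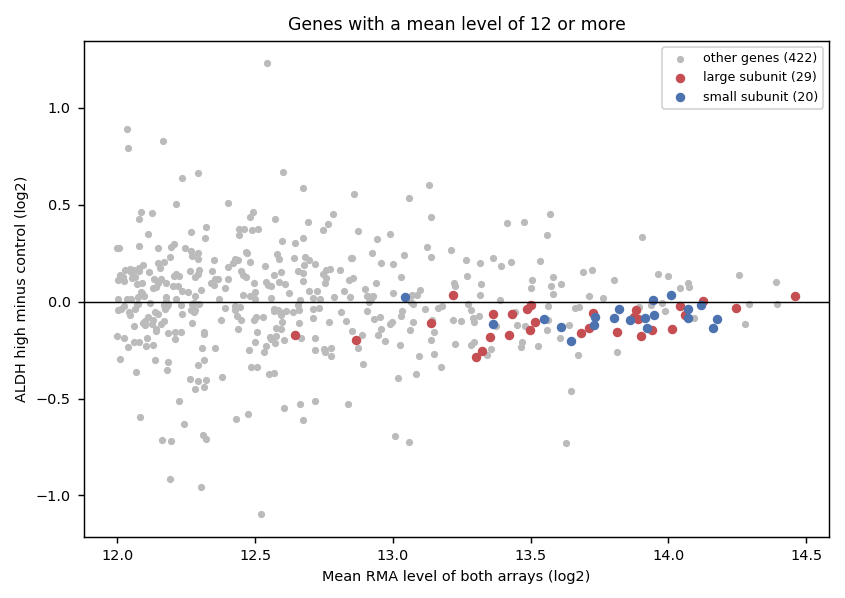
Difference, ALDH high minus control (log2), against the mean RMA level (log2) of both arrays for the 471 genes with a mean level of 12 or more; each point is a gene by its main probe set. The 29 large and 20 small subunit genes form a narrow band with 43 of 49 points below 0, while the 422 other genes spread to both sides.

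On the main probe sets the large and the small subunit had nearly the same median difference. In the large subunit 27 of 32 core genes lay below 0, with a median of -0.08, and in the small subunit 17 of 20, also with a median of -0.08. The difference between the medians was -0.00025, against a spread across genes (SD) of 0.092 in the large and 0.060 in the small subunit. The large subunit ranged from -0.28 to 0.13, and the small subunit from -0.20 to 0.03. The 0.13 belonged to RPL36A on a dim probe set. Over bright probe sets the highest values were 0.032 in the large and 0.033 in the small subunit. Over bright probe sets alone the medians were -0.11 for 29 large and -0.08 for 20 small subunit genes, a difference of -0.023. With the mean of each gene's probe sets 27 large and 13 small subunit genes lay below 0, and the medians differed by -0.040.

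Among large subunit genes, RPL34 had the largest negative difference of the core. Its level was 13.16 on the ALDH-high and 13.45 on the control array, 1.22-fold lower, on a single probe set that is not marked as binding several transcripts. RPL3, whose protein reaches towards the catalytic centre, stood at 13.20 against 13.45, 1.19-fold lower. RPL36 stood at 12.77 against 12.96, RPL6 at 13.26 against 13.44, and RPL9 at 13.81 against 13.99. RPL35A, one of the genes mutated in Diamond-Blackfan anaemia, was at 13.33 against 13.51, and RPL29 at 12.56 against 12.73. All these were lower by 1.13-fold to 1.22-fold, and the second bright probe sets of RPL35A (-0.16) and RPL29 (-0.21) pointed the same way.

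A few large subunit genes were level or slightly higher. RPL41, which encodes one of the shortest known human proteins and had the brightest probe set of the members, stood at 14.48 against 14.45. RPL14 stood at 13.23 against 13.20, with a second bright probe set at -0.0023, and RPL23A, at the exit of the peptide tunnel, at 14.13 against 14.12. RPL37A, also among the brightest, stood at 14.23 against 14.26. RPL36A (5.49 against 5.36), RPLP2 (5.79 against 5.73) and RPL27A (7.43 against 7.44) rested on dim probe sets and say little about these genes. They were the 3 core genes below a mean level of 12, and RPL36A and RPLP2 gave the highest values of the large subunit.

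In the small subunit, RPS6 had the largest negative difference. This protein is the classical substrate of the S6 kinases downstream of mTORC1. Its main probe set stood at 13.55 against 13.75, 1.15-fold lower, its other bright probe sets differed by -0.23 and -0.21, and its dim one by -0.17. RPS18, in the head of the subunit, stood at 14.09 against 14.23, RPS14, in the platform, at 13.85 against 13.99, and RPS29, a zinc-binding head protein, at 13.55 against 13.68. RPS16 stood at 14.13 against 14.22, and its 3 bright probe sets ranged from -0.16 to -0.09. The 3 small subunit genes above 0 were RPS15 (14.02 against 13.99), RPS9 (13.06 against 13.03) and RPS19 (13.95 against 13.94). RPS19 is the gene most often mutated in Diamond-Blackfan anaemia, and its second bright probe set stood at -0.014.

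Groups by position in the ribosome mostly had medians from -0.09 to -0.07. Their counts are to be read beside the shares below 0, which were 84.6% of the 52 core genes and 50.3% of all genes. Of 10 measured proteins of the small subunit head 8 lay below 0, with a median of -0.08, and of 10 of the body and platform 9 did, with a median of -0.08. Of the 3 that line the mRNA channel (RPS3, RPS14 and RPS28) all lay below 0, with a median of -0.09. Of 7 proteins around the exit of the peptide tunnel 6 lay below 0, with a median of -0.07, the lowest being RPL31 (13.94 against 14.08) and RPL19 (13.64 against 13.78). Near the catalytic centre and the tRNA sites, RPL3, RPL10A (13.85 against 13.94) and RPL8 all lay below 0, with a median of -0.09. The acidic stalk, which recruits the translation factors with GTPase activity, was represented by RPLP1 (14.03 against 14.05) and the dim RPLP2 probe set, with a median of 0.020 over the 2. Without shared-target probe sets the medians were -0.15 at the tunnel exit (4 genes) and -0.011 in the body and platform (8 genes). RPL11, which also binds MDM2, stood at 13.08 against 13.19. Of 14 measured genes mutated in Diamond-Blackfan anaemia 13 lay below 0, with a median of -0.10, the lowest being RPL35A and RPL27 (13.73 against 13.89). All 14 had bright main probe sets, and of the 49 bright core genes 43 lay below 0, with a median of -0.09. None of these lists, which do not include RPL34, had a member over 1.2-fold in either direction.

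Probe sets of one gene scattered less where they were bright than where they were dim. Of 69 member probe sets with a mean level of 12 or more, 63 lay below 0, against 54.4% of all single-symbol probe sets at that level, and their median was -0.10. Of the 14 members with several such probe sets, 12 had all of them below 0, 2 had both signs (RPL14 and RPS19) and 0 had all above. The 51 dimmer member probe sets had a median of -0.014, with 28 below 0 and 22 above. Over the 34 members with several probe sets at any level the pooled SD between probe sets of a gene was 0.18, over bright ones 0.099 and over dimmer ones 0.25. The core median was smaller in size than each of these, which describe single probe sets and not a median over genes. Bright probe sets of all genes had a pooled SD of 0.062.

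Among the members with the widest spread between probe sets, RPS24, RPS15A and RPL37 each had 1 bright probe set and dimmer ones. RPS24 had -0.04 on its bright probe set and 0.74 on a dimmer one (8.58 against 7.84), the largest difference of any member probe set. RPS15A had -0.12 on the bright one and -0.40 and 0.36 on the others, and RPL37 had -0.14 against a range of -0.40 to 0.17. RPS29 had -0.13 and, on a dim one, 0.30. RPL22, which binds RNA and has roles outside the ribosome, differed even among bright probe sets. Its 3 brightest, whose IDs end in _x_at, ranged from -0.03 to -0.0091. The other 2 stood at 12.19 against 12.63 and at 12.16 against 12.54, differences of -0.44 and -0.38. The first of these, which is not marked as shared, was 1.35-fold lower in the ALDH-high cells.

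**Figure D3:**
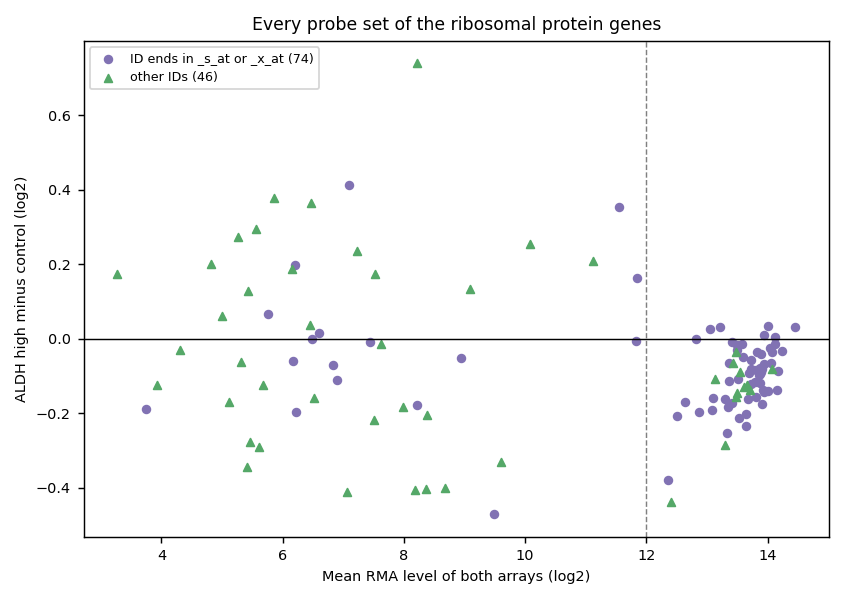
Difference, ALDH high minus control (log2), against mean RMA level (log2) for all 120 member probe sets, with 74 that can bind several transcripts (circles) and 46 others (triangles); the dashed line marks a level of 12. To the right of the line 63 of 69 points lie below 0, and to the left the points scatter from -0.47 to 0.74.

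Ribosomal protein genes have many processed pseudogenes, and 42 of the 52 main core probe sets have IDs ending in _s_at or _x_at, which mark possible binding to more than 1 transcript. Bright probe sets without that mark existed for 12 core genes, RPL8, RPL11, RPL18, RPL19, RPL22, RPL24, RPL34, RPL35, RPS3, RPS16, RPS23 and RPS29. All 12 lay below 0, with a median of -0.13, against 54.2% of the 179 genes with such a probe set. The 8 large subunit genes among them had a median of -0.13 and the 4 of the small subunit -0.11. When dim probe sets of this kind were allowed too, 30 core genes could be read, 22 lay below 0 and the median was -0.12. The 46 bright probe sets with several listed symbols, which were not used above, had a median of -0.10, with 40 below 0. Among these the 37 that list a large subunit symbol had a median of -0.12 (35 below 0) and the 9 that list a small subunit symbol had -0.018 (5 below 0), and several of them share a gene.

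The 7 minor paralogues did not share the pattern of the core, but none had a main probe set with a mean level of 12 or more. All 51 member probe sets under that level had a median of -0.014. Of the 7 paralogues 5 lay above 0 and 2 below, against 45.6% and 50.3% of all genes. Their median was 0.16 and their mean 0.045. Without shared-target probe sets the median of the 6 left was -0.08. On the main probe sets the differences spread with an SD of 0.29 across these genes, against 0.34 across all genes. RPS27L, a close relative of RPS27 that is a p53 target, stood at 11.73 against 11.38, 1.28-fold higher. Its second probe set differed by 0.41 and its dimmest by -0.29, so that the direction turns when probe sets with shared targets are left out. RPS27 itself stood at 14.11 against 14.13, with a dim probe set at 0.38. RPL26L1 (11.22 against 11.01) was 1.15-fold higher and RPL7L1, a factor of large subunit assembly, 1.12-fold higher (11.92 against 11.76), while RPL7 stood at 13.86 against 13.90.

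The paralogues below 0 were RPL22L1 and RPL10L. RPL22L1 stood at 9.43 against 9.76, 1.26-fold lower, on 1 probe set with a unique target, the same direction as all 5 probe sets of RPL22. RPL10L, a testis paralogue of RPL10, stood at 6.86 against 7.27, 1.33-fold lower on a dim probe set. RPL39L (9.16 against 9.03) was 1.10-fold higher, and RPL39 stood at 14.03 against 14.09. RPL3L, the striated muscle paralogue of RPL3, was dim on both arrays (4.92 against 4.72), where such a difference says little. Levels of different probe sets are not set against each other here, since each depends on its own probes.

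Genes beyond the symbol rule that belong to the same machinery were read from lists. FAU, which encodes a ubiquitin-like protein fused to a small subunit protein, stood at 13.02 against 13.13, and RPL36AL at 12.69 against 12.73. Of 15 measured genes with TOP messenger RNAs, mostly translation factors, 12 lay below 0, against 50.3% of all genes. Their median was -0.05. EIF2S3, a subunit of the initiation factor that delivers the initiator tRNA, was the 1 over 1.2-fold lower (10.85 against 11.12), and 2 were over 1.2-fold higher, HNRNPA1 and EEF1D, shares no larger than those of all genes (16.2% and 13.8%). The elongation factor EEF2 stood at 13.35 against 13.58 and EEF1A1 at 14.39 against 14.40, while HNRNPA1, an RNA-binding protein, was 1.21-fold higher (12.39 against 12.11) with 0.62 when its probe sets were averaged. EEF1D, a subunit of the elongation factor complex, stood at 11.50 against 11.24, with 0.16 when they were averaged, which is below 1.2-fold.

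Regulators of ribosomal protein synthesis lay on both sides of 0. Of 15 genes 8 lay above 0 and 7 below, against 45.6% and 50.3% of all genes, with a median of 0.029. Over 1.2-fold lower were 2, EIF4EBP1 and MYC, and over 1.2-fold higher was 1, the RNA-binding protein LARP4 (11.37 against 11.02), shares no larger than those of all genes (16.2% and 13.8%). EIF4EBP1, the translation repressor that mTORC1 inactivates, was 1.85-fold lower (9.87 against 10.75), and MYC, a transcription factor that drives ribosome production, 1.47-fold lower (10.87 against 11.42). LARP1 stood at 12.11 against 11.99 and MTOR at 7.62 against 7.42. A list of 11 chaperone genes also held some not dedicated to single ribosomal proteins, such as NACA, BTF3 and ZNF622. Of the 11, 9 lay above 0, with a median of 0.12, and 3 were over 1.2-fold higher, against 45.6% and 13.8% of all genes. GRWD1, the escort of RPL3, was 1.44-fold higher (8.25 against 7.73) and HEATR3, which acts on RPL5 and RPL11, 1.28-fold higher (9.17 against 8.81). BCCIP, which escorts RPL23 and was picked once its value was known, was 1.25-fold higher (10.73 against 10.41).

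**Figure D4:**
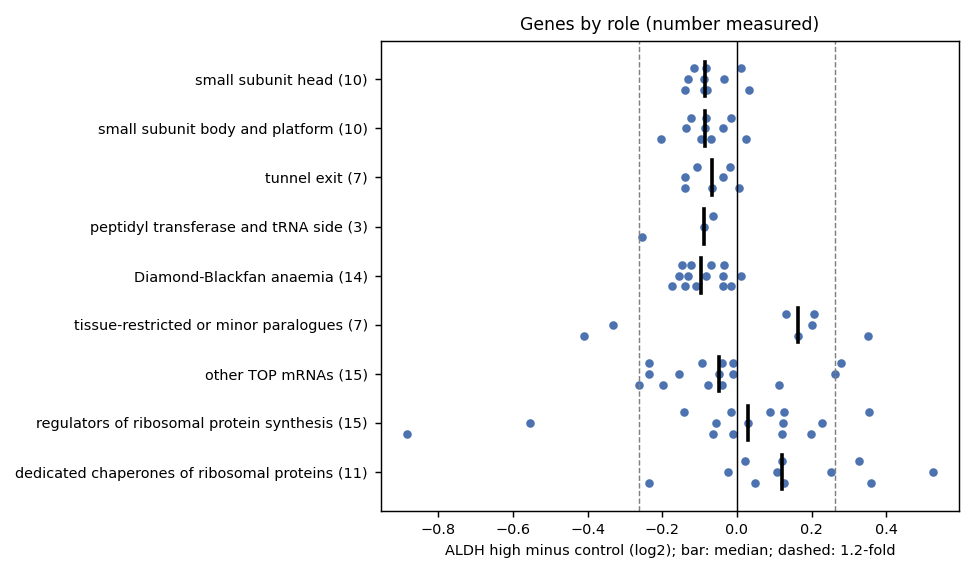
Differences, ALDH high minus control (log2), of genes grouped by role, with the number measured; each point is a gene by its main probe set, bars are medians and dashed lines mark 1.2-fold. The 5 groups of core ribosomal proteins, which do not include RPL34, have medians below 0 and all points within 1.2-fold. The paralogues, other TOP mRNAs, regulators and chaperones have points beyond 1.2-fold. Of all genes 16.2% were over 1.2-fold lower and 13.8% higher.

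Features of the arrays that could bear on a shift this small were read in the same way. The 18 hybridisation control probe sets differed by 0.048 on average (SD 0.041), and the 24 probe sets of poly-A controls, RNAs that are added before labelling, were higher on the ALDH-high array by 0.32 on average (SD 0.069). As signs of RNA quality, the probe set at the poly-A end of ACTB exceeded that at the opposite end 1.83-fold on the ALDH-high array and 1.67-fold on the control array. For GAPDH these ratios were 1.14 and 1.15. The part of these in the ribosomal protein values was not tested. Some neuroendocrine markers had high levels on both arrays, with SCG2 at 13.69 against 13.77, CHGB at 12.60 against 12.71 and CHGA at 11.50 against 11.70. Others had lower levels, with SYP at 6.48 on both, SCGN at 7.79 against 7.77 and NCAM1 at 8.53 against 8.83. Of 11 neuroendocrine markers SST (13.43 against 12.83) and SCG5 (12.39 against 12.75) differed most, and of 6 epithelial markers KRT19 (10.17 against 9.58, with a second probe set at a difference of -0.08) and CEACAM5 (13.42 against 13.88). Markers of fibroblasts (6 genes), endothelium (4) and leukocytes (4) all had levels from 2.58 to 7.74. The members that differed most for fibroblasts were COL3A1 (3.77 against 3.47, but 0.039 when its probe sets were averaged) and COL1A1 (7.46 against 7.74). For endothelium they were VWF (5.36 against 5.57) and CDH5 (3.20 against 3.33), and for leukocytes LYZ (4.34 against 5.67) and CD14 (4.30 against 5.32). LYZ and CD14 were dim on both arrays. With a pseudocount of 32 the LYZ difference went from -1.33 to -0.67 and that of CD14 from -1.02 to -0.48. A second LYZ probe set differed by -0.42.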

How the data were processed

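Total RNA of ALDH-high and control QGP1 cells was measured on 1 Affymetrix array each. The authors deposited log2 values, 1 per probe set, computed by RMA according to the submitters' processing notes and per the labels. Its version, and which arrays it normalised jointly, are not stated there. Genes were named from GEO's platform annotation, in which 41097 probe sets had 1 symbol, 1801 several and 11777 none listed. All 59 member symbols were found by Entrez ID in RefSeq (GRCh38.p14), and 0 changed.

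Differences were taken as ALDH high minus control with Python 3.11.15, pandas 2.3.3 and numpy 2.4.6, without filter or pseudocount, and the steps were tested on simulated data. With 1 array per group there is no test, depth does not apply, and the number of arrays limits the precision. The members, gene lists and thresholds (1.2-fold, 2-fold and a level of 12) were chosen with earlier results of these data known. Genes named are the 10 members with the largest difference in each direction, the 3 brightest and 3 dimmest core genes, the paralogues with their partners, the stalk, RPL11, the 5 members with the widest probe set range and 2 genes per other list. Others, such as RPS9, RPS19, EIF2S3, LARP4, EEF2, EEF1A1, LARP1, MTOR, SCG2, CHGB, CHGA, SYP, SCGN and NCAM1, were named after their values were seen. Alternatives were the mean or median of probe sets, no shared-target probe sets, a pseudocount of 32, centring, and the choice of members. Protein sequences were not analysed here.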

Additional observations from a re-analysis of the deposited data

How the results depend on the processing

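The core median stayed below 0 under every alternative run, between -0.13 and -0.07. Centring shifts every gene by the same small amount, and a pseudocount of 32 hardly changes bright levels. These runs could therefore change the core median little. Without probe sets ending in _s_at or _x_at, 30 core genes remained measurable. The large subunit median was -0.14 and the large minus small difference -0.056. Of these 30 genes 22 lay below 0 (14 large, 8 small). Of 36 members, paralogues included, 8 were over 1.2-fold lower and 3 higher. These counts hold fewer genes and more dim probe sets. On main probe sets 16.2% of all genes were over 1.2-fold lower and 13.8% higher. With the mean of each gene's probe sets the large minus small difference was -0.040 and 40 core genes lay below 0 (27 large, 13 small). With all members in place of the core, the large minus small difference was 0.0095. With the median of each gene's probe sets 2 of 59 members were over 1.2-fold higher. With bright unique-target probe sets, added after seeing the data, 12 genes were left, all below 0 (8 large, 4 small). RPS27L reversed to -0.29 without shared-target probe sets, where a dim one is left. Values of single genes and lists moved in 29 other cases and stayed in 371. A median was taken to have moved when it shifted by more than 0.05. Single genes were held to a wider limit, so a value that stayed can still differ by more than 0.05. RPL22, for example, went from -0.017 to -0.175 with the mean of its probe sets and was counted as stayed. No paired analysis was possible because each group has 1 array. Dim levels, which carry no detection call, limit what can be read from the dim probe sets.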
